A study of Mus musculus with 13 samples.

Results

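Rescued regulatory T (Treg) cells sampled 3 months after Foxp3 was switched on were compared with those sampled 1.5 months after, by the repertoire of their T cell receptor (TCR) α chains. The comparison took the 4 samples whose titles give 3 months and the 2 whose titles give 1.5 months, 6 of the 13 samples of the series. All 6 came from male C57BL/6 mice of the genotype Foxp3LSL/y Cd4creERT2, which were given 4-hydroxytamoxifen once, at postnatal day 14. The mice were 8 weeks old at 1.5 months and 3.5 months old at 3 months, so time after treatment and age cannot be told apart. In these mice a removable stop cassette with a Thy1.1 reporter blocks Foxp3, and every group carries this allele. A drug-dependent Cre expressed from the Cd4 locus removes the cassette, which restores Foxp3 with a GFP reporter in CD4 T cells present at that time. GFP+ Thy1.1- TCRβ+ CD4+ cells were sorted from pooled spleen and lymph nodes. The comparison has no wild-type Treg cells beside it. The labels do not say that replicates were separate mice, so the p-values measure the spread between these samples only.

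Each TCR α chain is made in the thymus by joining 1 V segment to 1 J segment, with bases trimmed and inserted at the joint. The joint is the CDR3, the loop that touches the peptide and the MHC molecule. A T cell hands its sequence on to its descendants, but a shared α-chain sequence does not by itself show descent from 1 cell. V and J segments lie in order on chromosome 14, and successive joins on a chromosome use V segments ever farther upstream and J segments ever farther downstream. Treg cells depend on a broad set of receptors for self-antigens, and clones that meet their antigen can expand.

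Sequences with the same V and J genes and the same CDR3 bases were counted as 1 clonotype, and only functional clonotypes, whose CDR3 translates without a stop or frameshift, were kept. The word clone stands below for a clonotype, whose counts come from transcripts and are not numbers of cells. There were 40090 entries over the 6 samples, of 78521 in all 13. The 1.5-month samples held 7998 (replicate 1) and 6497 (replicate 2) functional clonotypes. The 3-month samples held 7109, 5710, 6119 and 6657 (replicates 1 to 4). Functional counts ran from 553889 to 882170 per sample, with 568398 ± 20520 at 1.5 months (SD, n = 2) and 705211 ± 139558 at 3 months (SD, n = 4), so the later samples were on average read more deeply. Invariant α chains of other T cells were looked for as a check of the sort. The chain of mucosal-associated invariant T cells was found in 0 of the 6 samples. The invariant NKT chain was found in 3 months replicate 3 alone, in 2 clonotypes with 0.0442% of its counts. A count of 0 allows a share of up to 3.40e-04% to 5.42e-04%, depending on the sample, and like the intervals below this covers counting error only.

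Some libraries shared clonotypes in a lopsided way, and this has to be known before any result on overlap. Replicate 4 at 3 months and replicate 1 at 1.5 months shared 776 nucleotide clonotypes. Their median was 1 count in the former and 87.5 in the latter, and 521 of them had at least 20 times as many counts in the 1.5-month library. Within 3 months, replicates 1 and 2 shared 440, of which 192 were at least 20 times larger in replicate 2. Every clonotype with at least 20 times as many counts in another of the 13 libraries was then removed, without correction for depth. This took away 1.70% to 10.4% of the clonotypes of a sample but at most 0.289% of its counts. Whether the low-count copies belong to the sample that lists them was not tested, and clonotype numbers and overlaps may hold some that do not. Results on clone number, segment use and overlap are therefore also given without them where this matters.

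The largest clonotype of each sample shows what the clones of these repertoires look like. Their CDR3 sequences are printed 5′ to 3′ as read in that sample, with bases inserted between V and J in capitals and all other bases in lower case.
1.5 months replicate 1: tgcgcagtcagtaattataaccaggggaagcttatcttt
1.5 months replicate 2: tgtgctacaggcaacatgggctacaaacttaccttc
3 months replicate 1: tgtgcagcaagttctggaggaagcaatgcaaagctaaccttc
3 months replicate 2: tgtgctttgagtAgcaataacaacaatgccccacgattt
3 months replicate 3: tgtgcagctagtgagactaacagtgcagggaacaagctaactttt
3 months replicate 4: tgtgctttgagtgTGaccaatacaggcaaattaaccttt

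Of these 6 joints, 4 held 0 inserted bases, 1 held 1 and 1 held 2. At 1.5 months the first clonotype, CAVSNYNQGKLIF, joined TRAV3-3 to TRAJ23 and took 1.79% of counts (95% Wilson interval 1.75% to 1.82%). The second, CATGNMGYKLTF, joined TRAV8D-2 to TRAJ9 and took 0.995% (0.970% to 1.02%). At 3 months the clonotype of TRAV14-3 and TRAJ42 took 1.36% (1.33% to 1.38%), and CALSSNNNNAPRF (TRAV12-2, TRAJ43) also took 1.36% (1.33% to 1.38%). The TRAV7-4 to TRAJ17 clonotype of replicate 3 took 1.15% (1.13% to 1.18%), and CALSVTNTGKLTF (TRAV12-2, TRAJ27) of replicate 4 took 1.81% (1.77% to 1.84%). Each was private to its sample or nearly so, since the most that any of the 5 other samples held of these clonotypes was 21 counts. The 6 clonotypes used 6 different J genes. The share of the single largest clonotype was 1.39% ± 0.560 at 1.5 months (SD, n = 2) and 1.42% ± 0.277 at 3 months (SD, n = 4), and the groups overlapped.

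The share of counts in clonotypes above 0.1% and in the 100 largest was higher in every 3-month sample than in either 1.5-month sample, although no difference passed the test. The 10 largest clonotypes overlapped, with 5.52% and 4.45% of counts at 1.5 months and 7.32%, 6.02%, 5.06% and 6.98% at 3 months. Clonotypes above 0.1% of counts numbered 56 and 78 at 1.5 months and took 11.3% and 13.8% of counts. At 3 months they numbered 100, 84, 71 and 80 and took 23.0%, 17.5%, 15.5% and 18.6%. All 4 later samples lay above both earlier samples, with replicate 1 the highest. The means were 12.5% ± 1.82 (SD, n = 2) and 18.7% ± 3.13 (SD, n = 4), a difference of 6.11 percentage points with a standard error of 4.98 (exact permutation p = 0.475). This p came from all 540540 arrangements of the 13 samples over the 4 time points, with the spread pooled over all time points and the largest of the 3 comparisons with 1.5 months taken as the statistic.

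The 100 largest clonotypes held 14.99% and 15.9% of counts at 1.5 months, and 23.0%, 19.0%, 18.1% and 20.5% at 3 months. The groups did not overlap, and the means differed by 4.72 percentage points with a standard error of 4.23 (exact permutation p = 0.557). Conversely, 50% of counts was reached by the 1094 and 901 largest clonotypes at 1.5 months, but by the 688, 794, 860 and 737 largest at 3 months. Here too the groups did not overlap, with means of 998 ± 136 (SD, n = 2) and 770 ± 74.1 (SD, n = 4) and a difference of -228 (standard error 115, exact permutation p = 0.169). Without 1.5 months replicate 1 this difference was -131 (exact permutation p = 0.639). When only these 6 samples were permuted, the 15 possible arrangements allowed no p below 0.0667. Both the share of the 100 largest and the half-of-counts number reached that value (exact permutation p = 0.0667), while the share above 0.1% gave an exact permutation p of 0.133. With 2 samples at 1.5 months, a comparison of these groups alone cannot pass a threshold of 0.05. Of the 17 single-value measures, 3 did not overlap between the groups (17.6%), and they are the 3 just described, which are computed from the same large clones and are not independent of each other.

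**Figure D1:**
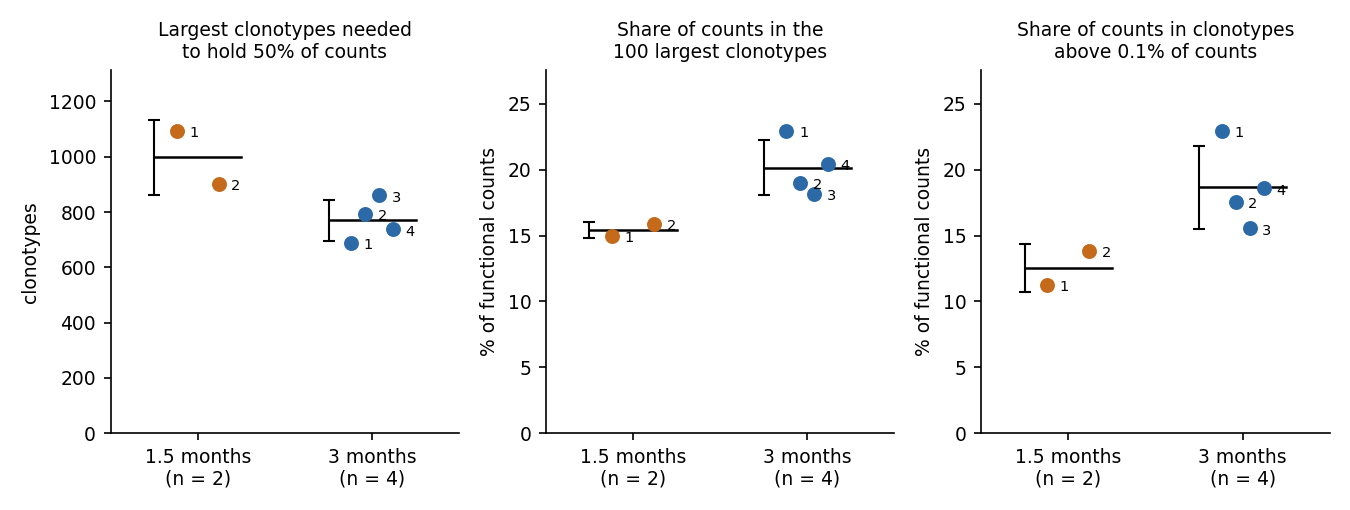
Number of largest clonotypes that together held 50% of functional counts (left), share of functional counts in the 100 largest clonotypes in percent (middle) and share in clonotypes above 0.1% of counts in percent (right). Points are samples, numbered by replicate, horizontal lines are group means and bars are the SD. In each panel the 2 samples at 1.5 months (orange) and the 4 at 3 months (blue) do not overlap, the narrowest gap being between 901 and 860 clonotypes on the left.

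Measures of the whole distribution overlapped in the tables as deposited. Clonotypes numbered 7248 ± 1061 at 1.5 months (SD, n = 2) and 6399 ± 612 at 3 months (SD, n = 4), and the 6497 of 1.5 months replicate 2 lay within the later range. The difference of -849 was -98.2 without 1.5 months replicate 1 and -1599 without replicate 2. The inverse Simpson index, which falls as a few clones take more of the counts, was 1138 and 1580 at 1.5 months. It was 889, 1107, 1309 and 884 at 3 months, so replicates 1, 2 and 4 lay below both early samples and replicate 3 did not. The Gini coefficient, which is 0 for clones of equal size, was 0.607 and 0.594 at 1.5 months. At 3 months replicates 2 and 3, at 0.585 and 0.578, lay below both early samples, whereas replicates 1 and 4, at 0.677 and 0.663, lay above them. Replicates 1 and 4 were also those with the most clonotypes seen by 1 count (1735 and 1653, against 620 and 578 in replicates 2 and 3) and with most clonotypes removed as larger in another library (656 and 692, against 218 and 104). At a minimum of 10 counts per clonotype the Gini coefficient was 0.466 and 0.483 at 1.5 months and 0.534, 0.505, 0.494 and 0.498 at 3 months, so that all 4 later samples lay above both early ones (exact permutation p = 0.579). The groups overlapped without clonotypes 20 times larger elsewhere, with 0.593 and 0.584 and then 0.646, 0.569, 0.571 and 0.627. Of the 17 measures, 0 had an exact permutation p under 0.05, the range being 0.169 to 0.984, and after Benjamini-Hochberg adjustment every one had an adjusted exact permutation p of 0.984. The clonotype number was the exception under 1 setting, since at a minimum of 2 counts per clonotype its difference was -799 (exact permutation p = 0.0450, not adjusted).

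In use of V segments per clonotype, the main test called 1 family as different between the times. TRAV9, a family of 11 annotated genes on chromosome 14 (52792316 to 53676630, plus strand, GRCm38), was found in 319 and 227 clonotypes at 1.5 months, or 3.99% and 3.49% of clonotypes. At 3 months it was found in 353, 318, 310 and 367 clonotypes, or 4.97%, 5.57%, 5.07% and 5.51%. All 4 later samples lay above both earlier ones. The mean share rose from 3.74% ± 0.350 (SD, n = 2) to 5.28% ± 0.307 (SD, n = 4), a ratio of 1.41 and a fitted log2 fold change of 0.48 with a standard error of 0.13. By edgeR's quasi-likelihood test on clonotype numbers over all 13 samples, with Benjamini-Hochberg adjustment over 19 families, its adjusted p was 0.0180. It was the 1 family called of 19 (5.26%), and 2 (10.5%) had an unadjusted p under 0.05. In simulated tables of families most changed families were recovered, but false calls were more frequent than a threshold of 0.05 allows. The call did not stand under every choice. DESeq2 gave an adjusted p of 0.0893, and edgeR gave 0.471 without 1.5 months replicate 2 and 0.0661 without 3 months replicate 4. The fold kept its direction under all 15 alternatives tried, between 0.40 and 1.12 on the log2 scale.

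TRAV9 stood apart from the other families in its counts. Its clonotypes had a median of 5 and 4 counts at 1.5 months and 10, 38, 8 and 9 at 3 months. The clonotypes of all other families had medians of 46, 59, 59, 105, 69 and 51 in the same samples. Over the 6 samples the median of these medians was 8.5 for TRAV9, against 50 to 84 for the 13 other families with over 1% of clonotypes. TRAV9 clonotypes thus had lower counts than the rest in each of the 6 samples, and the 3-month libraries were on average deeper. At equal depth the log2 fold change of TRAV9 clonotypes was 0.51 (edgeR adjusted p = 0.0110). Among clonotypes with at least 10 counts, of which TRAV9 had 123 and 73 at 1.5 months and 178, 241, 142 and 183 at 3 months, it was 1.12 (edgeR adjusted p = 0.0227). That minimum lies above the early TRAV9 medians and kept 38.6% and 32.2% of the early against 45.8% to 75.8% of the late TRAV9 clonotypes, so it is no independent support. Without clonotypes that were 20 times larger elsewhere it was 0.55 (edgeR adjusted p = 0.0114). Whether the low counts of TRAV9 come from its transcripts or from how the family was amplified and assigned was not tested, and the call rests on these counts.

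The TRAV9 difference was spread over many clonotypes of low count. The largest TRAV9 clonotype of a sample took 2.71% to 6.60% of the family's counts, and these 6 clonotypes are shown because they used 6 different J genes and share no sequence.
1.5 months replicate 1, TRAV9-4 and TRAJ33: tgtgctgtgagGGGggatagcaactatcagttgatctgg
1.5 months replicate 2, TRAV9N-4 and TRAJ18: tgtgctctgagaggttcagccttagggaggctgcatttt
3 months replicate 1, TRAV9N-3 and TRAJ12: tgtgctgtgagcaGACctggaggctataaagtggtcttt
3 months replicate 2, TRAV9-4 and TRAJ43: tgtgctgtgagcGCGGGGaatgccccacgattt
3 months replicate 3, TRAV9-1 and TRAJ31: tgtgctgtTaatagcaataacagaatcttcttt
3 months replicate 4, TRAV9D-2 and TRAJ52: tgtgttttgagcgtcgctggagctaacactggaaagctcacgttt

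Inserted bases are again in capitals. These clonotypes had 225 and 131 counts at 1.5 months and 490, 1235, 235 and 222 at 3 months, and each was found in its own sample alone. Of the TRAV9 genes, TRAV9-1 (53488045 to 53488567) had the most clonotypes, 101 and 68 at 1.5 months and 128, 120, 103 and 108 at 3 months. Its share was 1.15% ± 0.153 (SD, n = 2) and 1.80% ± 0.213 (SD, n = 4), with a log2 fold change of 0.61 (edgeR adjusted p = 0.0856, the smallest over single V genes). TRAV9D-1, TRAV9D-3 and TRAV9N-4 also had shares that did not overlap and were higher at 3 months. They did not pass (edgeR adjusted p = 0.206, 0.413 and 0.493). The shares of TRAV9-2, TRAV9-4, TRAV9D-2, TRAV9N-1 and TRAV9N-3 overlapped. How often single V genes of other families did not overlap is not given here, so this is not read as particular to TRAV9. Some TRAV9 genes are near-identical copies of each other, so clonotypes may be split between the names of such copies. The mean CDR3 length of TRAV9 clonotypes was 13.5 to 13.7 residues and they held 2.14 to 2.53 inserted bases on average, with the groups overlapping in both. Their mean J number was 29.6 and 30.7 at 1.5 months and 27.5 to 28.0 at 3 months, without overlap, which was not tested.

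Per count, TRAV9 took 0.967% and 0.524% at 1.5 months and 1.34%, 2.12%, 1.22% and 1.45% at 3 months. The groups again did not overlap. The ratio of the means, 0.746% and 1.53%, was 2.05, and the log2 fold change of 1.00 (standard error 0.38) had an edgeR adjusted p of 0.186, so this difference did not pass. Without 1.5 months replicate 1 the log2 fold change was 1.69 (edgeR adjusted p = 0.0915). Of 21 families tested per count, 0 (0%) were called by edgeR and 0 by DESeq2, with 3 (14.3%) and 2 at an unadjusted p under 0.05. The smallest unadjusted p per count belonged to TRAV3, with 8.06% and 6.65% of counts at 1.5 months and 6.35%, 5.46%, 5.21% and 6.35% at 3 months (log2 fold change -0.37, edgeR adjusted p = 0.186). Its share per clonotype was also lower without overlap, at 6.01% and 5.77% against 5.23%, 5.46%, 5.18% and 5.51% (log2 fold change -0.15, edgeR adjusted p = 0.408). Without 1.5 months replicate 1 the per-count log2 fold change of TRAV3 was -0.06. TRAV13 took 8.18% ± 0.596 (SD, n = 2) and 6.60% ± 0.849 (SD, n = 4) of counts, without overlap (log2 fold change -0.34, edgeR adjusted p = 0.285), and its log2 fold change was -0.10 without 1.5 months replicate 1, -0.23 without 3 months replicate 4. TRAV19 took 0.987% and 1.35% at 1.5 months and 0.986%, 0.737%, 0.512% and 0.831% at 3 months (log2 fold change -0.63, edgeR adjusted p = 0.285), where the gap between the groups was narrow. Without 1.5 months replicate 2 its log2 fold change was -0.24.

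Groups of values that do not overlap were common among segments, which sets the scale for these differences. Per clonotype 3 of 19 families (15.8%) were higher at 3 months without overlap, namely TRAV1, TRAV8 and TRAV9, and 1 (5.26%), TRAV3, was lower. Per count 2 of 21 (9.52%) were higher, TRAV9 and TRAV14, and 4 (19%) were lower, TRAV3, TRAV13, TRAV19 and TRAV20. TRAV1, at the far upstream end of the locus, took 0.538% and 0.677% of clonotypes at 1.5 months and 0.900%, 0.683%, 0.752% and 0.751% at 3 months (log2 fold change 0.36, edgeR adjusted p = 0.438). TRAV8 took 2.48% and 2.68% and then 3.35%, 2.77%, 2.79% and 2.75% (log2 fold change 0.18, edgeR adjusted p = 0.438). Per clonotype TRAV19 took 0.954% ± 0.218 (SD, n = 2) and 0.743% ± 0.153 (SD, n = 4) of clonotypes (log2 fold change -0.33, edgeR adjusted p = 0.438). The log2 fold change of TRAV19 was -0.10 without 1.5 months replicate 2, that of TRAV1 was 0.20 without 1.5 months replicate 1, and that of TRAV8 was 0.12 without 3 months replicate 1. For TRAV2, also far upstream and a small family, the shares of counts were 0.183% ± 0.0683 (SD, n = 2) and 0.455% ± 0.278 (SD, n = 4), with overlap (log2 fold change 1.30, edgeR adjusted p = 0.347).

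The families used most differed by less than their standard errors. TRAV7 took 19.2% ± 0.691 of clonotypes at 1.5 months (SD, n = 2) and 18.6% ± 0.713 at 3 months (SD, n = 4), TRAV14 took 14.9% ± 0.124 and 14.97% ± 0.619, and TRAV12 took 11.8% ± 0.287 and 11.7% ± 0.474. TRAV4 took 10.4% ± 0.818 and 10.0% ± 0.731, and TRAV6 took 9.35% ± 0.358 and 9.54% ± 0.419. All 5 overlapped between the groups per clonotype, and their log2 fold changes lay between -0.05 and 0.02. Per count, TRAV14 took 14.3% and 15.1% at 1.5 months and 15.96%, 18.8%, 16.6% and 17.2% at 3 months, so its later samples were all higher (log2 fold change 0.19, edgeR adjusted p = 0.347). Over the 19 families the median log2 fold change was -0.02. Over all 6 samples 22 families were seen, and TRAV18, TRAV20 and TRAV23 had too few clonotypes to be tested.

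**Figure D2:**
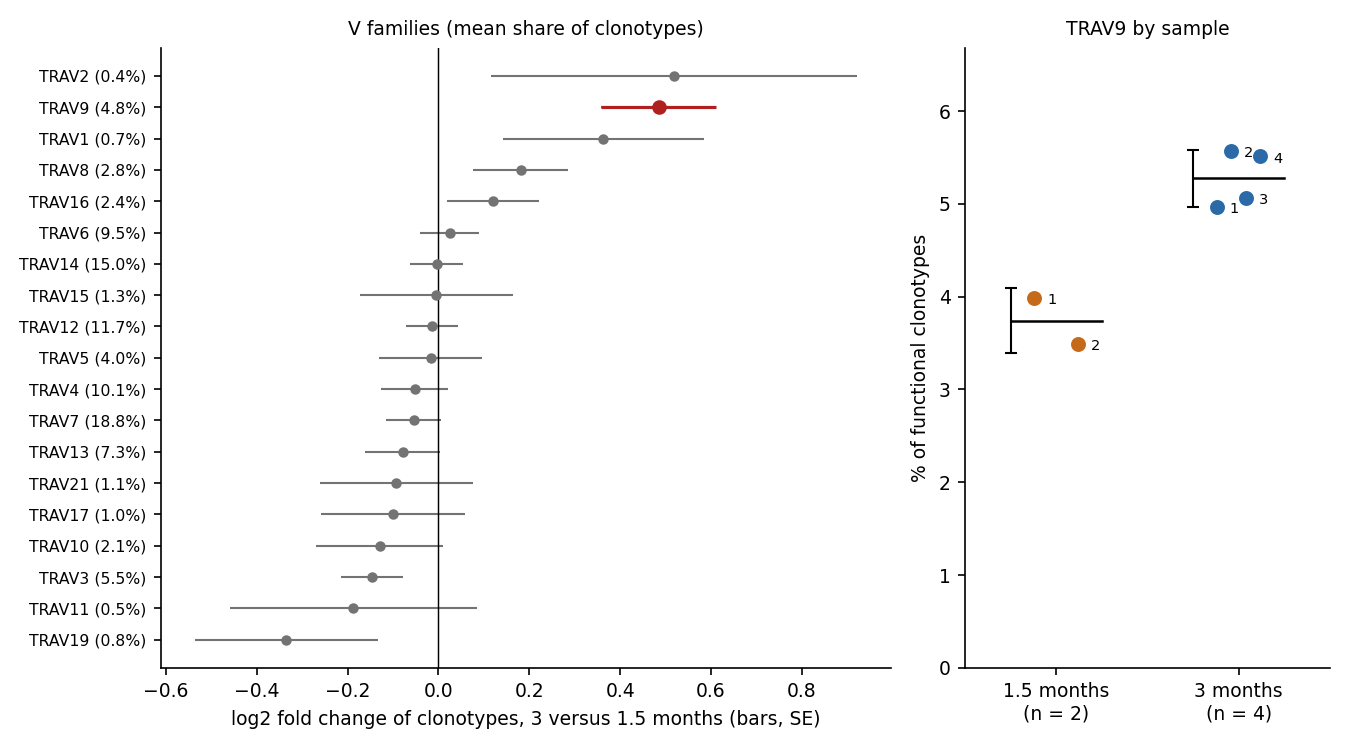
Left, fitted log2 fold change of the number of functional clonotypes between 3 and 1.5 months for the 19 V families tested, with standard errors as bars and the mean share of clonotypes over the 6 samples in brackets. TRAV9 (red) is at 0.48, and TRAV2, a rare family with a wide standard error, is at 0.52. Right, TRAV9 share of functional clonotypes in percent by sample, with group means as lines and SD as bars, where the 1.5-month samples lie at 3.99% and 3.49% and the 3-month samples between 4.97% and 5.57%.

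No single J gene passed the test between the time points. Of 43 J genes, 0 (0%) were called per clonotype by edgeR and 0 by DESeq2, and 0 (0%) by edgeR and 0 by DESeq2 had an unadjusted p under 0.05. Per count 0 (0%) were called by either tool, with 0 (0%) by edgeR and 1 by DESeq2 at an unadjusted p under 0.05. Per clonotype 1 J gene (2.33%) was higher and 2 (4.65%) were lower at 3 months without overlap, and per count 2 (4.65%) were higher and 4 (9.3%) were lower. The log2 fold changes per clonotype of all 43 lay between -0.24 and 0.22.

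The J genes used most were TRAJ15 (5.45% ± 0.520 of clonotypes at 1.5 months, SD, n = 2, and 5.96% ± 0.988 at 3 months, SD, n = 4), TRAJ21 (5.49% ± 0.296 and 5.72% ± 0.226) and TRAJ31 (5.21% ± 0.295 and 5.39% ± 0.103). TRAJ23 (4.62% ± 0.209 and 4.51% ± 0.345) and TRAJ22 (4.24% ± 0.123 and 4.18% ± 0.360) followed. TRAJ15 varied most among these within 3 months, with 4.70% in replicate 1, 6.29% in replicate 2, 7.06% in replicate 3 and 5.81% in replicate 4. The smallest unadjusted p per clonotype belonged to TRAJ33 (54185358 to 54185414), with 2.08% and 1.66% at 1.5 months and 2.21%, 2.45%, 2.12% and 1.92% at 3 months (log2 fold change 0.22, edgeR adjusted p = 0.957), and its log2 fold change was 0.40 without 1.5 months replicate 1 and 0.090 without replicate 2. TRAJ6 (54212688 to 54212749) was next, with 1.90% and 1.92% and then 2.12%, 2.12%, 1.99% and 2.55%, and was the 1 J gene higher without overlap. TRAJ11 took 1.15% and 1.09% at 1.5 months and 0.999%, 0.928%, 0.719% and 1.08% at 3 months, and TRAJ49 took 2.42% ± 0.208 (SD, n = 2) and 2.13% ± 0.136 (SD, n = 4). Per count the smallest p belonged to TRAJ23 (54196081 to 54196140), with 6.36% and 5.32% of counts at 1.5 months and 4.71%, 4.61%, 4.93% and 4.69% at 3 months (log2 fold change -0.31, edgeR adjusted p = 0.961). The largest clonotype at 1.5 months, with 1.79% of counts, uses TRAJ23 and belongs to replicate 1, the sample with the higher share, without which the log2 fold change was -0.13. TRAJ49 (3.11% and 2.39%, then 1.85%, 2.22%, 1.73% and 2.06% of counts) was also lower without overlap, while TRAJ7 (1.51% and 1.70%, then 2.03%, 1.80%, 2.34% and 2.28%) and TRAJ42 (2.06% and 2.03%, then 3.50%, 2.49%, 2.38% and 2.09%) were higher without overlap. TRAJ30 took 2.89% ± 0.653 of counts early and 3.76% ± 0.524 late, with overlap. All 4 had an edgeR adjusted p of 0.961.

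**Figure D3:**
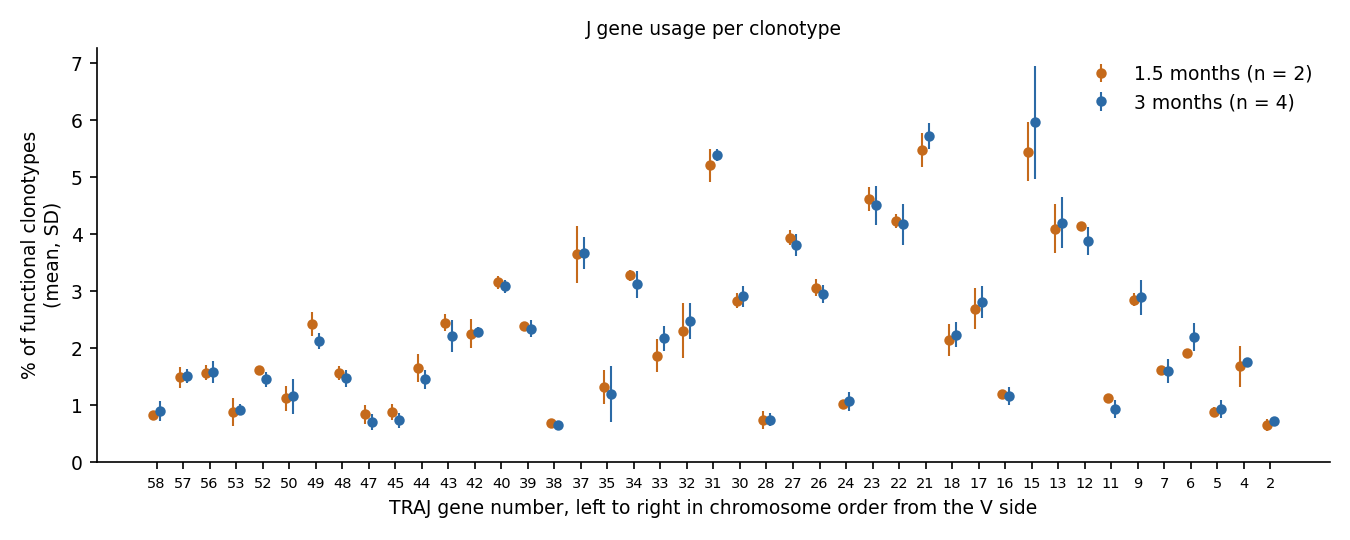
Share of functional clonotypes in percent for each of the 43 J genes tested, in chromosome order from TRAJ58 (nearest the V segments) to TRAJ2, at 1.5 months (orange, n = 2) and 3 months (blue, n = 4), as means with SD bars. Both time points follow the same profile, with peaks at TRAJ31, TRAJ21 and TRAJ15.

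The position along the J cluster was summarised by the mean J gene number, where a high number is near the V segments. It was 27.8 and 27.9 at 1.5 months and 27.9, 27.4, 27.4 and 27.4 at 3 months, with replicate 1 of the later samples inside the early range (difference -0.336, standard error 0.236, exact permutation p = 0.381). After removal of clonotypes 20 times larger elsewhere it was 27.8 and 27.9, and then 27.7, 27.4, 27.4 and 27.1, so that all 4 later samples lay below both early ones (difference -0.506, exact permutation p = 0.130). The groups did not overlap with the 100-times removal either, nor at a minimum of 10 counts, where the difference was -0.624 (exact permutation p = 0.190). At equal depth they did overlap, with 3 months replicate 1 at 27.82 between the early 27.79 and 27.94 (difference -0.377, exact permutation p = 0.318). The link of V position to J position was clear in every sample, and whether it differed between the times was not tested. Clonotypes of TRAV1 and TRAV2, the upstream end, had a mean J number of 23.9 and 22.8 at 1.5 months and 22.5, 21.1, 21.1 and 23.5 at 3 months. Clonotypes of TRAV17 to TRAV21, the downstream end, had 47.7 and 48.4, and then 48.9, 48.6, 47.3 and 48.6. The 2 ends together made up a small part of the repertoire, with 65, 61, 90, 76, 57 and 75 clonotypes of TRAV1 and TRAV2 and 255, 208, 205, 157, 172 and 205 of TRAV17 to TRAV21 in the same order of samples.

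Pairs of a V family with a J gene were tested per clonotype. Of 283 pairs, 0 (0%) were called by edgeR and 0 by DESeq2, with 11 (3.89%) and 4 at an unadjusted p under 0.05. The pair with the smallest p was TRAV9 with TRAJ13, with 2 clonotypes in each 1.5-month sample and 13, 11, 12 and 5 at 3 months (log2 fold change 2.47, standard error 0.68, edgeR adjusted p = 0.338). Without 3 months replicate 4 its edgeR adjusted p was 0.0452, and without the filter on low counts it was 0.0407. TRAV9 with TRAJ21 had 15 and 7 clonotypes at 1.5 months and 31, 19, 15 and 18 at 3 months (log2 fold change 1.10, edgeR adjusted p = 0.516), with replicate 3 level with the higher early sample in number but above it in share. TRAV8 with TRAJ32 had 2 and 4 clonotypes and then 19, 13, 6 and 6 (log2 fold change 2.01, edgeR adjusted p = 0.581).

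CDR3 properties showed no detectable difference. Mean CDR3 length per clonotype was 13.5 residues at both times, with a difference of -0.0192 (standard error 0.0216, exact permutation p = 0.685), and per count the difference was -0.0218 (standard error 0.0497, exact permutation p = 0.947). Loops of 13 residues were 30.3% ± 0.695 (SD, n = 2) and 30.6% ± 1.18 (SD, n = 4) of clonotypes, and loops of 14 residues were 30.7% ± 1.26 and 29.9% ± 0.979. Loops of 11 residues or fewer made up 5.64% ± 0.601 and 5.47% ± 0.741, and those of 16 or more 6.10% ± 0.180 and 5.89% ± 0.261.

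Terminal transferase is the enzyme that adds bases at the joint without a template. Bases between the V end and the J start are counted here as inserted, and which of them the enzyme added was not tested. They numbered 2.18 and 2.12 per clonotype at 1.5 months and 2.18, 2.24, 2.09 and 2.21 at 3 months (exact permutation p = 0.795). Joints with 0 inserted bases were 30.3% and 31.9% of clonotypes at 1.5 months and 30.7%, 29.1%, 31.7% and 29.4% at 3 months (exact permutation p = 0.547). Weighted by counts, the number of inserted bases was lower at both times, 1.88 ± 0.0592 (SD, n = 2) and 1.92 ± 0.0945 (SD, n = 4). The same order stood within each of the 6 samples by clone size. Clonotypes above 0.1% of counts held 1.46 to 1.91 inserted bases on average, those between 0.01% and 0.1% held 1.96 to 2.15, and those at 0.01% or less held 2.21 to 2.37.

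Hydrophobic residues at both positions 6 and 7 of the CDR3, a feature linked to self-reactivity in β chains, were found in 1.38% and 1.45% of clonotypes at 1.5 months and in 1.08%, 1.38%, 1.39% and 1.23% at 3 months (exact permutation p = 0.544). A cysteine inside the CDR3, a residue whose presence has been tied to strong self-reactivity, was found in 1.36% ± 0.161 (SD, n = 2) and 1.23% ± 0.456 (SD, n = 4) (exact permutation p = 0.909). Convergent clonotypes, whose amino-acid sequence is encoded by more than 1 nucleotide clonotype of the same sample, were 12.1% and 10.1% at 1.5 months and 9.46%, 10.6%, 12.3% and 10.0% at 3 months (exact permutation p = 0.892). In all 3 properties the groups overlapped in the tables as deposited. At a minimum of 10 counts the hydrophobic pair was found in 1.29% and 1.24% of clonotypes and then in 0.913%, 1.14%, 1.23% and 1.08%, without overlap (exact permutation p = 0.223).

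Most CDR3 sequences were private to 1 sample. Of 25377 distinct amino-acid sequences in the 6 samples, 19544 (77.0%) were found in 1 and 186 (0.733%) in all 6. The 186 took 8.96% and 8.86% of counts at 1.5 months and 8.62%, 10.2%, 10.6% and 10.6% at 3 months. They were common in counts though few in number, and replicate 1 at 3 months lay below both early samples. The more samples held a sequence, the fewer bases had been inserted in it, from 2.81 on average in sequences of 1 sample to 0.649 in those of all 6. The mean length went from 13.7 to 12.9 residues, and the share of clonotypes with 0 inserted bases from 22.2% to 64.2%. Nucleotide forms per sequence within 1 sample went from 1.04 to 1.99. Without clonotypes 20 times larger elsewhere 159 sequences were found in all 6 samples, with 0.609 inserted bases on average.

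**Figure D4:**
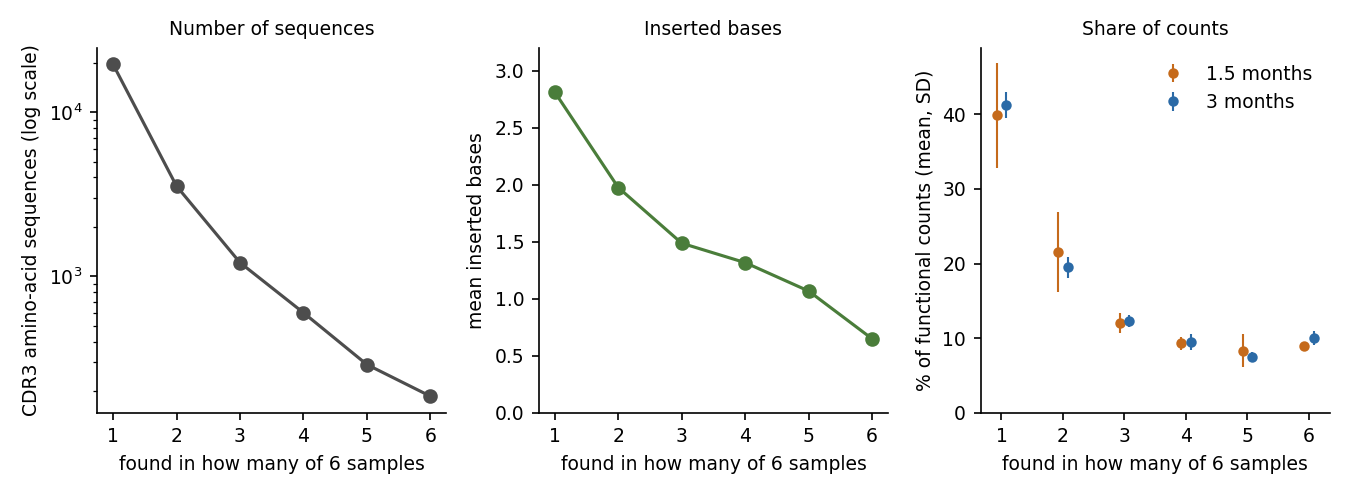
CDR3 amino-acid sequences by the number of the 6 samples that held them. Left, number of sequences on a log axis, from 19544 in 1 sample to 186 in all 6. Middle, mean number of inserted bases, from 2.81 to 0.649. Right, share of functional counts in percent as group means with SD at 1.5 months (orange, n = 2) and 3 months (blue, n = 4), with the largest share in sequences of 1 sample, 39.8% and 41.2%.

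The sequence with the highest mean share among the 186, of 12 residues, was made mostly by TRAV4 with TRAJ12 (54206553 to 54206610). It took 0.200% and 0.118% of counts at 1.5 months and 0.392%, 0.515%, 0.226% and 0.930% at 3 months, without overlap (log2 fold change 1.66, standard error 1.43, edgeR adjusted p = 1.00). Its 3 most abundant nucleotide forms are shown because they give the same protein by different joints, with 0 or 1 inserted base in capitals.
TRAV4N-4, first form: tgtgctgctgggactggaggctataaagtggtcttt
TRAV4N-4, second form: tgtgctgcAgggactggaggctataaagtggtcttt
TRAV4D-4: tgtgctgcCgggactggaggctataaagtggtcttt

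The first form had 869, 1675, 551 and 1555 counts in the 4 samples at 3 months and 0 under this V gene name at 1.5 months. The second was found with 3529 counts in 3 months replicate 4 alone, where it made up most of that sample's high share. The third had 107 and 208 counts at 1.5 months and 800, 1795, 444 and 0 at 3 months. In all, the sequence had 11 nucleotide sequences, and 3 to 8 forms in a sample. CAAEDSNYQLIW, TRAV4 with TRAJ33, was second, with 0.108% and 0.0832% at 1.5 months and 0.529%, 0.0425%, 0.736% and 0.0713% at 3 months, where replicates 1 and 3 were high and replicates 2 and 4 low. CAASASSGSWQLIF, mostly TRAV14 with TRAJ22, was even, with 0.297% and 0.280%, and then 0.274%, 0.243%, 0.204% and 0.257%.

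Many shared CDR3 nucleotide sequences were listed with several V genes. Of 4378 CDR3 nucleotide sequences found in at least 2 of the 6 samples, 2054 (46.9%) carried more than 1 V gene name. For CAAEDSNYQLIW, 1 and the same nucleotide sequence was named TRAV4-4-DV10, TRAV4N-4 or TRAV4-3 in different samples. More than 1 V family name was carried by 606 of the 4378 (13.8%). Of 168 with a TRAV9 name, 38 also had a name of another family. Whether 1 joint was named differently or several V genes gave the same sequence was not tested. Shared nucleotide clonotypes were counted under the listed V name, and the lopsided sharing described above adds to them. Amino-acid sequences were compared without the V name.

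A clonotype that was seen in all 6 samples under 1 name and held the highest share over both times joined TRAV14D-1 (52855614 to 52856166) to TRAJ13 (54205741 to 54205797) with 0 inserted bases.
TRAV14D-1 and TRAJ13: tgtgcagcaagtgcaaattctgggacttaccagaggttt

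It had 660 and 2141 counts at 1.5 months, or 0.119% and 0.367%, and 887, 2684, 1030 and 554 at 3 months, or 0.119%, 0.304%, 0.165% and 0.0976%. The groups overlapped. Only 3 nucleotide clonotypes were found in all 6 samples, and 92.0% were found in 1. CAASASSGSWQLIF (TRAV14D-1, TRAJ22) and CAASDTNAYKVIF (TRAV7D-2, TRAJ30) had the next highest shares over a pair of samples from the 2 times, at 0.194% with 0.207% and at 0.366% with 0.185%, in each case with 0 counts under these names in 1.5 months replicate 2. The same nucleotide sequence of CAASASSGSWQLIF had 1475 counts (0.253%) there as TRAV7D-2, and whether this is 1 joint under another name or a separate joint was not tested.

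Large clones were found at the other time point more often than small ones. Without clonotypes 20 times larger elsewhere, 69.6% and 51.3% of clonotypes above 0.1% of counts at 1.5 months had an amino-acid sequence seen in some 3-month sample. For clonotypes at 0.01% or less these were 35.6% and 35.0%. At 3 months 46.0%, 53.6%, 53.5% and 52.5% of the large clonotypes were seen in some 1.5-month sample, against 27.1%, 28.2%, 29.4% and 27.8% of the small. The order held in each of the 6 samples. The 2 directions are not comparable with each other, since the early samples were looked up in 4 libraries and the late ones in 2. Before that removal, 94.6% of the large clonotypes of 1.5 months replicate 1 were seen at 3 months, against 57.7% in replicate 2.

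In the tables as deposited, samples of 1 time point did not on average share more than samples of different time points. The Jaccard index of amino-acid sequences, shared sequences as a share of all sequences in either sample, was 10.7% for the 1.5-month pair. It was 9.85% on average over the 6 pairs within 3 months, with a range of 9.12% to 11.6%. Between the times it was 10.6% ± 1.82 (SD, 8 pairs). Of those 8, the pair of 1.5 months replicate 1 with 3 months replicate 4 stood at 14.98% and the others between 9.55% and 10.5%. The difference within minus between was -0.582 percentage points (exact permutation p = 0.600 over 15 arrangements). Without clonotypes 20 times larger elsewhere the pairs moved closer together, to 9.72% for the 1.5-month pair, 8.78% within 3 months and 9.43% ± 0.353 (SD, 8 pairs) between. All 8 pairs between the times, at 8.98% to 9.86%, then lay above all 6 pairs within 3 months, at 8.48% to 8.92%. The difference of -0.520 had the smallest p that 15 arrangements give (exact permutation p = 0.0667), as it did at minimums of 2 and 10 counts per clonotype. Without 3 months replicate 4 in the tables as deposited, the difference was 0.196 percentage points.

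For nucleotide clonotypes the index was 2.21% for the 1.5-month pair, 2.05% on average within 3 months and 2.11% ± 1.41 (SD, 8 pairs) between the times, a difference of -0.0427 percentage points (exact permutation p = 1.00). The pair with lopsided sharing had 5.59%, and the other 7 pairs between the times had 1.41% to 1.79%. Without clonotypes 20 times larger elsewhere that pair had 1.44%, and all 15 pairs lay between 1.15% and 1.54%. The difference within minus between was then 0.0139 percentage points (exact permutation p = 0.933). In the tables as deposited but without the most similar pair, the index was 2.07% within and 1.62% between. This difference of 0.454 percentage points had the smallest p that 15 arrangements give (exact permutation p = 0.0667). The pair left out was between the times, and the lopsided pair within 3 months was kept.

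**Figure D5:**
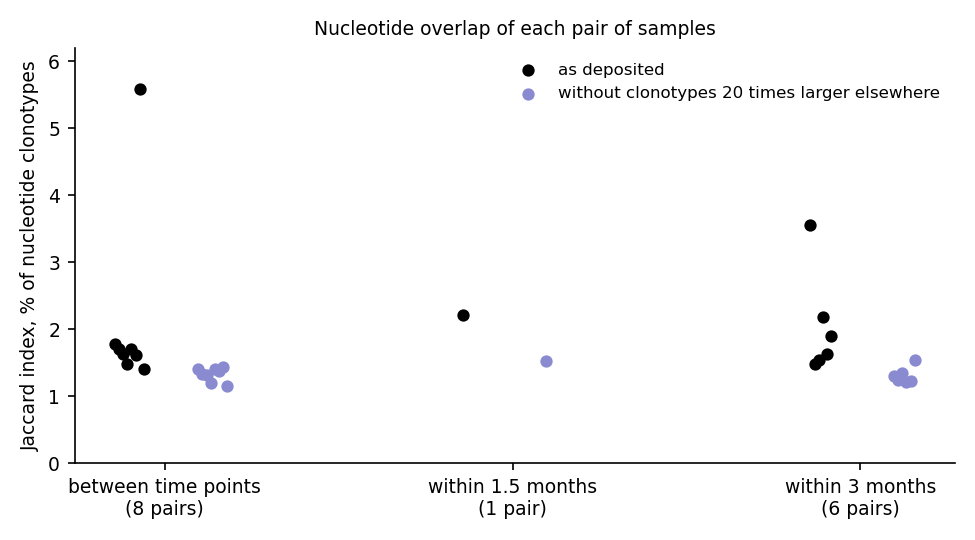
Jaccard index of nucleotide clonotypes in percent for each of the 15 pairs of the 6 samples, between the 2 time points, within 1.5 months and within 3 months. Black points are the tables as deposited, where 1 pair between the times reaches 5.59% and 1 within 3 months reaches 3.55%, and violet points leave out clonotypes at least 20 times larger in another library, where all pairs lie between 1.15% and 1.54%.

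Of 1223 amino-acid sequences found in both 1.5-month samples, 258 (21.1%) were in no 3-month sample. Of 275 found in all 4 samples at 3 months, 22 (8%) were in no 1.5-month sample and 67 were in 1 of the 2. These shares rest on different numbers of libraries and are not a test. Without clonotypes 20 times larger elsewhere they were 232 of 1082 (21.4%) and 15 of 236 (6.36%).

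Single sequences shared by samples were also compared by their counts. A sequence had to be in at least 4 of the 6 samples, so one seen at 1.5 months alone could not enter. One seen at 3 months alone could. After the filter on low counts, 1074 amino-acid sequences were tested. By edgeR 0 (0%) were called and 12 (1.12%) had an unadjusted p under 0.05, while DESeq2 called 8 and had 44. In simulated counts of this kind the edgeR test did not recover sequences changed by several fold, so its 0 carries no information on how many changed. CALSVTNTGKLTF had 0 counts in both 1.5-month samples and 1, 1, 122 and 10257 at 3 months (edgeR adjusted p = 0.0908), and it is the largest clone of replicate 4. It entered the comparison through the 4 late samples alone. The 1 count in each of replicates 1 and 2 was of the same nucleotide clonotype that had 10257 in replicate 4, a lopsided sharing as described above. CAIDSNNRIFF had 442 and 162 counts at 1.5 months and 0, 3, 0 and 1 at 3 months (edgeR adjusted p = 0.270). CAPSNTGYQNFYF had 5627 and 171 counts and then 0, 73, 0 and 12 (edgeR adjusted p = 0.284). In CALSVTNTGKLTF and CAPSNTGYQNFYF 1 sample held most of the counts, while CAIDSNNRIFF had over 100 counts in both early samples. Without 3 months replicate 1, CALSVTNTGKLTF passed (edgeR adjusted p = 0.0175). Since it entered through late samples alone and rests mostly on replicate 4, this is no support for a difference between the times.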

How the data were processed

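TCRα transcripts were amplified by 5′ RACE, and the authors aligned reads and assembled clonotypes with MiXCR and corrected them with VDJtools. The genome build per the labels was GRCm38. The deposited tables give raw counts per clonotype, and the sources used here do not state whether these are reads or molecules. The deposited fraction of each clonotype was not used. The V end and J start within the CDR3, which the authors deposited as positions (other unit), gave the inserted bases. Rows whose CDR3 holds other than amino-acid letters (5.83% to 7.74% of counts) were removed.

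Python 3.11.15 (numpy 2.4.6, pandas 2.3.3, scipy 1.17.1) computed 17 measures per sample. The study compared each time with 1.5 months by analysis of variance. The same pooled statistic was used here with exact two-sided permutation over the 13 samples, corrected for 3 comparisons, and Benjamini-Hochberg adjustment over the 17 measures. Segment use was tested on all 13 samples by the quasi-likelihood test of edgeR 4.0.16 (R 4.3.3), after filterByExpr and TMM scaling, with DESeq2 1.42.0 as an alternative. V genes were merged to families because copies are near-identical. V and J positions came from GENCODE M21 (147 of 148 names found). Scripts were tested on simulated data. Named V families and J genes were the 5 most used per clonotype and the 5 with the smallest p in each fit. Named pairs and shared sequences were those past the threshold or else the 3 with the smallest p. Named clonotypes were the largest of each sample, and the 3 leading sequences by mean share over all 6 samples or by share over both times. TRAV9 was named in any case. Its single genes and clonotypes, the use of TRAV14 per count and TRAV20 were added after values were seen. All members and lists were chosen with earlier results of these data known. Alternatives were other depths (477052 counts), count minimums, normalizations and filters, removal of clonotypes 100 or 20 times larger in another library, a replicate block, and each sample left out. The 20-times removal, and equal depth for segment use, were chosen after seeing the data. Figures were drawn with matplotlib 3.10.9.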

Additional observations from a re-analysis of the deposited data

Results flagged for a closer look

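The 4 samples at 3 months were screened for a lone sample at either end in 46 sets of values, and chance alone gives about 1 such sample in 20 sets. There were 2. In the mean J number, replicate 1 at 27.9 lay apart from the other 3, all at 27.4, and inside the 1.5-month range. After removal of clonotypes 20 times larger elsewhere it was at 27.7, below both early samples, and the other 3 lay between 27.1 and 27.4. In the TRAV8 share of clonotypes, replicate 1 at 3.35% lay apart from the other 3, at 2.75% to 2.79%. The tables also list clonotypes of the TCR δ locus, which were not compared on their own above. Functional ones stayed among the clonotypes that the measures and overlaps used. Each of the 6 samples held δ clonotypes above the 3-count limit. They had 255 and 352 counts at 1.5 months and 146 to 492 at 3 months, so the groups overlapped.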

How the results depend on the processing

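With 2 samples at 1.5 months, every single value rests on few libraries and p-values say little of stability. Of 233 alternatives of the single-value results, 220 kept the direction of the difference and 1 gave an exact permutation p under 0.05, the clonotype number at a minimum of 2 counts (-799). Values of small clonotypes and of rare families are limited by depth. For each change below the cause was not tested.

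The V family call (1, TRAV9) became 0 with DESeq2 and with single V genes, and ranged from 0 to 1 with 1 sample left out, being 0 without 1.5 months replicate 2 or 3 months replicate 4. V-J pairs called (0) became 1 without the filter and 1 at a minimum of 10 counts, and ranged from 0 to 1 with 1 sample left out, being 1 without 3 months replicate 4. Shared sequences called (0) became 8 with DESeq2 and ranged from 0 to 1, being 1 without 3 months replicate 1.

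Directions turned as follows. The share of clonotypes below 0.001% of counts (1.30 percentage points) was -0.856 at equal depth, -0.0238 and -1.11 without clonotypes 100 or 20 times larger elsewhere, and -1.47 to 4.06 with 1 sample left out. With 1 sample left out CDR3 length ranged from -0.0522 to 0.0137 per clonotype and from -0.0463 to 0.0027 per count, inserted bases per count from -0.0056 to 0.0781, and convergent clonotypes from -1.47 to 0.459 percentage points. Internal cysteine was 0.0090 at a minimum of 10 counts and -0.295 to 0.0364 with 1 sample left out. Amino-acid overlap was 0.0506 without the most similar pair, 0.0014 by the Morisita-Horn index and -1.03 to 0.196 with 1 sample left out. Nucleotide overlap was 0.0302 at a minimum of 10 counts, 0.0139 with the 20-times removal, 0.454 without the most similar pair and -0.416 to 0.548 with 1 sample left out.

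For families near a log2 fold change of 0, TRAV12 was 0.013 with the replicate block, 0.0084 and 0.012 with the 100- and 20-times removal, and -0.041 to 0.024 with 1 sample left out. TRAV14 was 9.2e-04 by library totals, 1.6e-04 without the filter, 0.0071 with only the 6 samples, 0.0011 with the replicate block, 0.017 and 0.038 with the 100- and 20-times removal, 0.066 at 10 counts, 0.029 at equal depth, and -0.022 to 0.035 with 1 sample left out. Leaving out 1 sample gave -0.12 to 0.025 for TRAV4, -0.015 to 0.079 for TRAV6, -0.055 to 0.040 for TRAJ22 and -0.072 to 0.031 for TRAJ23. TRAJ22 was -0.014 with DESeq2, -0.013 by library totals and -0.0023 at 10 counts.

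The deviations of same-numbered samples had correlations from -0.568 to 0.477 over the measures, and the labels do not say whether such samples are related. With the replicate block TRAV9 stayed the 1 family called (edgeR adjusted p = 1.1e-04) and no single-value measure passed. As the meaning of the number is not known, this is no separate support for the call.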
